A study of Mus musculus with 2 samples.

Results

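The genes described here are 10 that encode enzymes and accessory proteins of prostaglandin and leukotriene synthesis (Pla2g4a, Ptgs1, Ptgs2, Ptges, Hpgds, Tbxas1, Alox5, Alox5ap, Lta4h and Ltc4s). They were chosen by name from knowledge of the pathway, with earlier results of these data known. All 10 were found among the 34714 genes of the deposited table. The samples were macrophages of C57BL/6 mice, grown from bone marrow with macrophage colony-stimulating factor at 20 ng/mL, and RNA was sequenced after 24 h. The anti-CD40 group (monoclonal antibody FGK45, an activator of the receptor CD40) held 1 library, and the IgG group (Ctrl) held 1 library. With a single library in each group no difference has a replicate check and no test was run, so genes are called higher or lower in these libraries only.

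Eicosanoids are short-lived lipid mediators made from arachidonic acid. Cytosolic phospholipase A2 releases the acid from membranes. Cyclooxygenases turn it into prostaglandin H2, from which separate synthases make prostaglandin E2, prostaglandin D2 or thromboxane A2. In the other branch, 5-lipoxygenase with its activating protein makes leukotriene A4, which becomes leukotriene B4 or leukotriene C4. Macrophages are a well-known source of both classes, and the inducible cyclooxygenase is a classical gene of inflammatory activation.

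Relative to the IgG library, the anti-CD40 library held more transcript of the inducible cyclooxygenase Ptgs2 and of the 5-lipoxygenase-activating protein Alox5ap. It held less of the constitutive cyclooxygenase Ptgs1, of the prostaglandin E synthase Ptges and of the leukotriene C4 synthase Ltc4s. The differences lay between a ratio of 0.598 (Ptges) and one of 1.81 (Ptgs2) in FPKM, a level corrected for the length of the transcript and the size of the library. Levels spanned a far wider range than the differences did: Alox5ap reached 314 FPKM with anti-CD40 and 240 FPKM with IgG, whereas Alox5 stood at 0.258 and 0.329 FPKM. Of the 10 genes, 7 reached 1 FPKM in at least 1 library, and Pla2g4a, Ptgs2 and Alox5 did not. Ptgs1 passed that level only through the IgG library, the one in which it was higher.

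**Figure D1:**
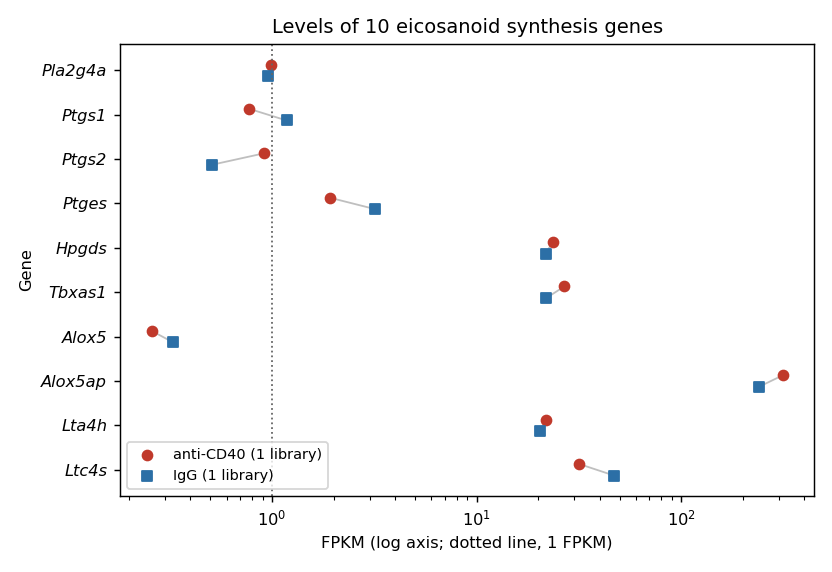
FPKM of each of the 10 genes on a log axis, with the anti-CD40 library as a circle above the IgG library as a square, 1 library per group. Alox5ap stands at 314 and 240 FPKM, while Alox5, Pla2g4a and Ptgs2 lie below 1 FPKM in both libraries.

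The libraries rested on about 6.16 gigabases of aligned sequence for anti-CD40 and 5.58 gigabases for IgG, as estimated from the steps in which low values rise. All 8 macrophage markers (such as Csf1r, Cd68 and Adgre1) exceeded 1 FPKM, and their sums were 15189 FPKM with anti-CD40 and 13033 FPKM with IgG. Lyz2 made most of both sums, and the other 7 summed to 1766 FPKM with anti-CD40 and 1707 FPKM with IgG. The markers did not all go 1 way. Lyz2, Adgre1, Cd68, Mertk and Itgam were higher with anti-CD40, whereas C1qa (ratio 0.854) and Fcgr1 (0.893) were lower and Csf1r was almost equal (0.998). Of 8 mast cell, 6 eosinophil and basophil, 7 fibroblast and 6 dendritic cell markers none reached 1 FPKM. Of 10 neutrophil markers only S100a8 did, with Ly6g, Mpo and Ltf listed at 0 in both libraries. Of 5 measured T cell markers only Cd4 did, and of 5 B cell markers none. Of 7 platelet and megakaryocyte markers 6 did. In bulk RNA, fewer cells of a type and less RNA per cell cannot be told apart.

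On the scale of log2(FPKM + 1), the median ratio of anti-CD40 over IgG was 0.12 over the 9591 genes that reached 1 FPKM, and 0.08 over the 7 members among them. Of these 7, Alox5ap and Tbxas1 lay above the median of all genes and 5 below it. Ptgs1 is among the 5 and passed the level only through the IgG library, so the filter favoured its place below the median. No member was 1.5-fold higher, where 2.68% of all genes were, and none was 1.5-fold lower, where 2.15% were. At 2-fold the members' counts were also 0, against 0.25% of all genes higher and 0.313% lower. At 1.3-fold, a threshold added after the values were seen, 1 member was higher (Alox5ap, against 12% of all genes) and 2 were lower (Ptges and Ltc4s, against 6.34%). The pseudocount of 1 pulls the log2 ratios of low genes toward 0, and Pla2g4a, Ptgs2 and Alox5, below the level, enter none of these counts. Among 7 genes, counts of 1 and 2 cannot be set apart from such shares.

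**Figure D2:**
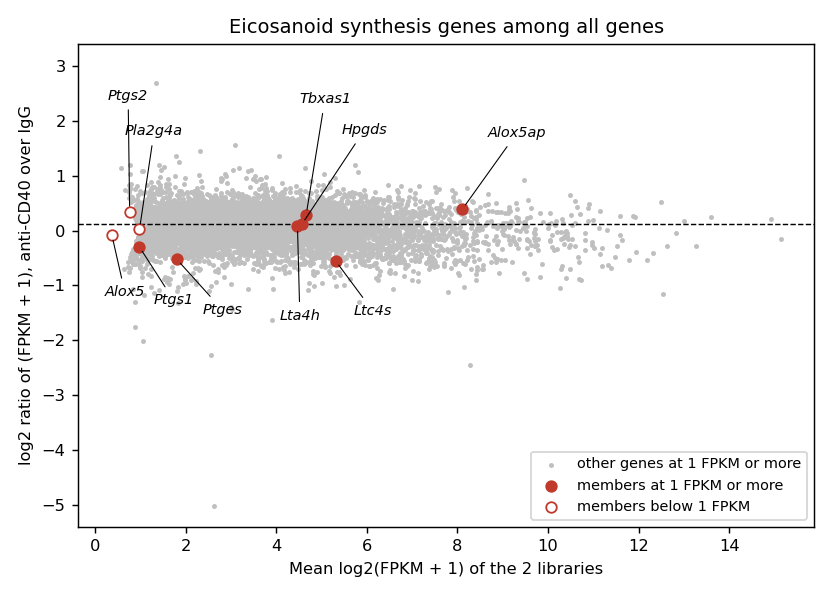
The log2 ratio of (FPKM + 1), anti-CD40 over IgG, against the mean log2(FPKM + 1) of both libraries, for all genes at 1 FPKM or more (grey), members at that level (filled) and members below it (open). The dashed line is the median of all genes, 0.12, and the members lie between -0.55 (Ltc4s) and 0.39 (Alox5ap), inside the cloud of other genes.

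Counting error was judged from approximate fragment numbers, which give a 95% exact conditional binomial interval for each ratio of FPKM values. Such intervals reflect the number of fragments and an assumed transcript length, and not how cultures vary. They lay above 1 for 4 members (Ptgs2, Alox5ap, Tbxas1 and Hpgds), below 1 for 3 (Ptgs1, Ptges and Ltc4s), and held 1 for Pla2g4a, Alox5 and Lta4h. Over the 11319 genes with at least 20 fragments in all, which include the 10 members, 34.5% had an interval above 1 and 13.6% one below 1. The median gene at 1 FPKM or more in both libraries had a ratio of 1.11, however. Set against that value, the interval lay above it for 3 members (Ptgs2, Alox5ap and Tbxas1), below it for the same 3 (Ptgs1, Ptges and Ltc4s), and held it for 4, where 18.3% of the 11319 genes lay above and 22.4% below. Among 10 genes these counts cannot be set apart from the shares of all genes.

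**Figure D3:**
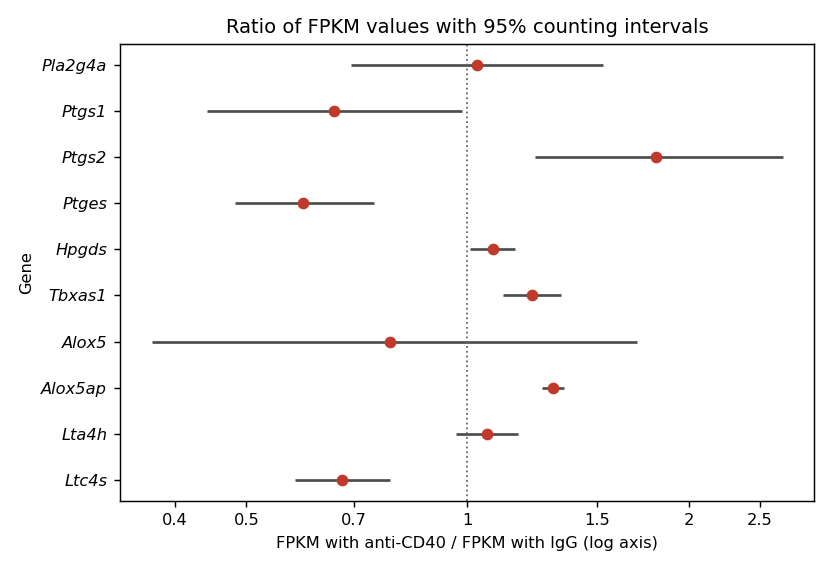
Ratio of FPKM with anti-CD40 to FPKM with IgG for each gene (points, log axis) with its 95% counting interval (bars), from 1 library per group. Ptges, Ltc4s and Ptgs1 lie left of 1 with intervals ending at 0.745, 0.784 and 0.982, and Ptgs2 has the highest ratio, 1.81.

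The sole member of the release step, Pla2g4a, showed no difference beyond counting error. Pla2g4a, the cytosolic phospholipase A2 that frees arachidonic acid from membranes (chromosome 1, 149829618 to 149961290, GRCm38), was measured at 0.989 FPKM with anti-CD40 and 0.96 FPKM with IgG. The ratio of 1.03 has an interval from 0.694 to 1.53, on about 58 and 51 fragments, which allows a difference in either direction.

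The cyclooxygenases differed in opposite directions. Ptgs2, the inducible enzyme (chromosome 1, 150100031 to 150108234), was measured at 0.916 FPKM with anti-CD40 and 0.507 FPKM with IgG. Its ratio of 1.81 has an interval from 1.24 to 2.69, on about 84 and 42 fragments, and stays above the ratio of the median gene. Ptgs1, the constitutive enzyme (chromosome 2, 36216742 to 36258593), was measured at 0.777 FPKM with anti-CD40 and 1.18 FPKM with IgG. Its ratio of 0.658 has an interval from 0.442 to 0.982, on about 46 and 63 fragments. Within a library the scaling of the library cancels. Ptgs2 stood at 1.18 times the FPKM of Ptgs1 with anti-CD40 (interval 0.823 to 1.69) and at 0.43 times with IgG (interval 0.291 to 0.635). Ptgs1 was thus the more abundant of the pair in the IgG library, while the order of the pair in the anti-CD40 library lay within counting error. The quotient of these ratios is 2.74, with a counting interval from 1.61 to 4.66. This pair and the pairs given further on were formed after the values were seen. Fibroblasts also express Ptgs2, and the 7 fibroblast markers, each under 1 FPKM, summed to 1.31 FPKM with anti-CD40 and 0.656 FPKM with IgG. Col1a1, a collagen gene, had 0.406 FPKM with anti-CD40 and 0.0319 FPKM with IgG (ratio 12.7, interval 4.07 to 42.3, on about 49 and 4 fragments). Col1a2 had 0.513 FPKM with anti-CD40 and 0.271 FPKM with IgG (ratio 1.89, interval 1.17 to 3.09). Col3a1 and Pdgfrb were lower with anti-CD40 (ratios 0.711 and 0.841), and Dcn and Pdgfra were higher (1.13 and 5.96). The intervals of Col3a1, Pdgfrb, Dcn and Pdgfra all hold 1, and Lum was listed at 0 in both libraries. The part of such cells in the Ptgs2 value was not tested.

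The stretches before the listed starts of the 4 genes with the ratios farthest from 1 are shown. Which start these cells used was not tested, and bases after the listed start were not searched. Each runs over the 250 bases before the start that RefSeq lists (GRCm38.p6), and the start listed for Ptgs1 and Ptges lies inside the gene span given here. Capitals mark matches on either strand to 5 motifs. These are TATAAA, bound by the TATA-binding protein; GGGCGG, known as the GC box; GGGNNNNNCC, a loose form of the NF-kB site; TGACGT, the core of a cAMP response element; and GAGGAA, a core bound by the myeloid factor PU.1. Overlapping matches run together.
Ptgs2: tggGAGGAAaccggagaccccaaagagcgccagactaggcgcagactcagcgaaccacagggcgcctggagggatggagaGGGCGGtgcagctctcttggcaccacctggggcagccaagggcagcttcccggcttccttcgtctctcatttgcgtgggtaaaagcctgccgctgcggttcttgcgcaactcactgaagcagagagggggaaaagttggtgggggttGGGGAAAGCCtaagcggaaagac
Ptgs1: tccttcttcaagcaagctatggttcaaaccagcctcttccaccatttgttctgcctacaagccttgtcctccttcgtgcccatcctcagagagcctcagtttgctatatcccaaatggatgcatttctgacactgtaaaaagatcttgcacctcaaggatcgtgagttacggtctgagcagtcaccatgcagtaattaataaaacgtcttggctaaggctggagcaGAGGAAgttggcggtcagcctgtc
Ptges: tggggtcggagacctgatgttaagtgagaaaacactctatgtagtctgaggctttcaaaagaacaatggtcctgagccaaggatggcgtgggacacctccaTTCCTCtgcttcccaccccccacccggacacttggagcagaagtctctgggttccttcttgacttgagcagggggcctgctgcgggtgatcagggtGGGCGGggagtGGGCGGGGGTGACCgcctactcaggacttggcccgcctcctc
Ltc4s: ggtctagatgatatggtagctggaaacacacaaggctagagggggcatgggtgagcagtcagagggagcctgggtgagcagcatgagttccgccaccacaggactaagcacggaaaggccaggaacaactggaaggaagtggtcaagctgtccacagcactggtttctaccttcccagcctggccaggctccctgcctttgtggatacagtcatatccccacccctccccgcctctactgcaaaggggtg

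The Ptgs2 stretch (chr1:150099781-150100030, plus strand) held GGGGAAAGCC from -23 to -14 before the start, GGGCGG from -170 to -165 and GAGGAA from -247 to -242. The Ptgs1 stretch (chr2:36230176-36230425, plus strand) held GAGGAA from -24 to -19 as its sole match, and its GC content was 48.0%, against 61.6% for Ptgs2. The Ptges stretch (chr2:30903298-30903547, minus strand) held GGGCGG at -53 to -48 and at -42 to -37, the second overlapping GGGGGTGACC at -38 to -29, as well as TTCCTC at -149 to -144. The Ltc4s stretch (chr11:50238533-50238782, minus strand) held none of these letters. Among 32851 listed stretches of this length, 45.8% held the NF-kB form, 32.7% the GC box, 23.3% the PU.1 core, 12.4% the TATA-binding letters and 6.47% the cAMP core, so the matches are common. They describe letters, not binding.

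The prostaglandin synthases differed in direction. Ptges, the microsomal synthase that makes prostaglandin E2 downstream of Ptgs2 (chromosome 2, 30889471 to 30931020), was measured at 1.92 FPKM with anti-CD40 and 3.21 FPKM with IgG. Its ratio of 0.598 has an interval from 0.483 to 0.745, on about 144 and 217 fragments, and its log2 ratio of -0.53 stood at percentile 3.12 of all genes. Ptges was thus lower in the library in which Ptgs2 was higher. The gene overlaps Gm52550, a non-coding gene listed at 0 in both libraries.

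Hpgds, the haematopoietic prostaglandin D synthase (chromosome 6, 65117293 to 65144981), exceeded it in both libraries, at 23.6 FPKM with anti-CD40 and 21.8 FPKM with IgG. Its ratio of 1.08 (interval 1.01 to 1.16) lies below that of the median gene, so that Hpgds turns from slightly higher to slightly lower once both libraries are centred on the median or on the upper quartile. Tbxas1, the thromboxane A synthase (chromosome 6, 38864159 to 39084590), was measured at 26.8 FPKM with anti-CD40 and 21.9 FPKM with IgG. Its ratio of 1.22 has an interval from 1.12 to 1.34, and relative to the median gene it is 1.11, with an interval from 1.01 to 1.21. Its span overlaps that of Hipk2, a kinase gene with 3.18 FPKM with anti-CD40 and 2.90 FPKM with IgG. Platelets also carry Ptgs1 and Tbxas1, and the summed platelet and megakaryocyte markers were 36.2 FPKM with anti-CD40 and 30.2 FPKM with IgG. Their part in either result was not tested. The difference of the sums lay mostly in Pf4, with 16.4 FPKM with anti-CD40 and 10.5 FPKM with IgG (ratio 1.55, interval 1.23 to 1.97), and Ppbp, Gp9 and Treml1 were also higher, each with an interval that holds 1. Gp1bb was lower, with 1.28 FPKM with anti-CD40 and 2.14 FPKM with IgG (ratio 0.60, interval 0.398 to 0.906), and Gp1ba and Itga2b had ratios of 0.769 and 0.938 with intervals that hold 1. As a share of Hpgds, Ptges amounted to 0.0814 with anti-CD40 and 0.147 with IgG, a quotient of 0.552 with an interval from 0.442 to 0.69.

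At the 5-lipoxygenase step the enzyme and its helper stood at opposite ends of the list. Alox5ap, a membrane protein that presents arachidonic acid to 5-lipoxygenase (chromosome 5, 149265004 to 149288153), was measured at 314 FPKM with anti-CD40 and 240 FPKM with IgG. That placed it at percentile 97.6 of all gene levels with anti-CD40 and at 96.8 with IgG. Its ratio of 1.31 has the narrowest interval of the 10, from 1.26 to 1.35, on about 8065 and 5579 fragments. Relative to the median gene the ratio is 1.18 (interval 1.14 to 1.22). The log2 ratio of 0.39 stood at percentile 88.6 of these 9591 genes, so that more than 1 in 10 of them were further up. Alox5ap made up 74.3% of the FPKM summed over the 10 genes with anti-CD40 and 67.1% with IgG. Without it the sums were 109 FPKM with anti-CD40 and 117 FPKM with IgG.

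Alox5, the 5-lipoxygenase itself (chromosome 6, 116410071 to 116461178), was measured at 0.258 FPKM with anti-CD40 and 0.329 FPKM with IgG. It rested on about 15 and 17 fragments, and the interval of its ratio of 0.784, from 0.371 to 1.70, allows either direction. Alox5ap exceeded it 1217-fold with anti-CD40 and 728-fold with IgG, and the quotient of 1.67 has an interval from 0.833 to 3.35.

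Of the enzymes that use leukotriene A4, Lta4h, the hydrolase that makes leukotriene B4 (chromosome 10, 93453396 to 93484896), was measured at 21.8 FPKM with anti-CD40 and 20.5 FPKM with IgG. Its ratio of 1.06 has an interval from 0.965 to 1.17, which holds the ratio of the median gene, and its log2 ratio of 0.08 turns slightly negative after centring on the median or upper-quartile scaling. Ltc4s, the synthase that joins leukotriene A4 to glutathione (chromosome 11, 50236461 to 50238532), was measured at 31.7 FPKM with anti-CD40 and 47.0 FPKM with IgG. Its ratio of 0.675 has an interval from 0.583 to 0.784, on about 316 and 423 fragments, and its log2 ratio of -0.55 stood at percentile 2.7 of all genes. In each library Ltc4s was the second most abundant member. It stood at 1.46 times the FPKM of Lta4h with anti-CD40 and 2.29 times with IgG, a quotient of 0.636 with an interval from 0.534 to 0.757.

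Over 9453 genes, the log2 ratio fell with GC content (Spearman correlation -0.207) and rose only weakly with transcript length (0.0707). Of genes in the shortest quintile of transcripts, 13.1% were at least 1.3-fold lower with anti-CD40, and of those in the quintile richest in GC 12.96% were, against 6.34% over all genes. The shortest quintile was also wider upward, with 17.0% at least 1.3-fold higher against 12% over all genes, whereas the GC-rich one held 8.78%. Ltc4s belongs to both quintiles, with an assumed transcript of 484 bases and a GC content of 59.0%. Its log2 ratio was -0.35 with the trend on length removed and -0.42 with the trend on GC removed. For Ptges, with 3647 bases and 53.1% GC, the same values were -0.53 and -0.52. Mast cells, eosinophils and basophils also express Ltc4s and Hpgds. The summed mast cell markers were 0.881 FPKM with anti-CD40 and 0.982 FPKM with IgG, with Mcpt4, Cma1 and Fcer1a listed at 0 in both libraries. Kit made most of both sums, with 0.809 FPKM with anti-CD40 and 0.755 FPKM with IgG. Cpa3 had 0.0484 FPKM with anti-CD40 and 0.0899 FPKM with IgG, and Hdc had 0.0239 and 0.137 FPKM. The intervals of Kit, Cpa3 and Hdc all hold 1. The eosinophil and basophil markers summed to 0.762 FPKM with anti-CD40 and 0.779 FPKM with IgG. The part of such cells in the Ltc4s and Hpgds values was not tested.

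Around the 10 genes, 79 further genes of eicosanoid release, conversion, transport and response were measured, of which 39 reached 1 FPKM. Their median log2 ratio was 0.16, 24 lay above the median of all genes and 15 below. On the log2(FPKM + 1) scale none of the 39 was 1.5-fold higher, against 2.68% of all genes, and 2 were 1.5-fold lower (Cyp4f18 and Prxl2b), against 2.15%. Counts this small cannot be set apart from those shares.

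**Figure D4:**
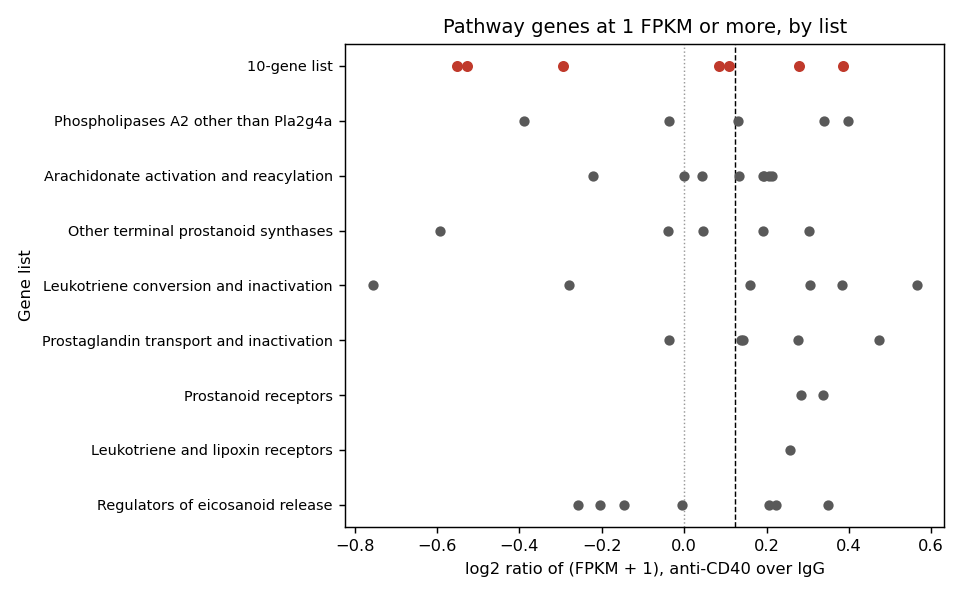
The log2 ratio of (FPKM + 1), anti-CD40 over IgG, of each gene at 1 FPKM or more (points), for the 10 genes in the top row (7 shown) and for further lists below it. The dashed line is the median of all genes, 0.12, and the dotted line is 0. The lowest point is Cyp4f18 at -0.76 and the highest is Mgst1 at 0.57.

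Among other phospholipases A2, 5 of 19 measured genes reached 1 FPKM, with 3 above the median of all genes and 2 below. Pla2g7, the secreted hydrolase of platelet-activating factor, had 194 FPKM with anti-CD40 and 147 FPKM with IgG, a ratio of 1.32 with an interval from 1.28 to 1.36. Pla2g6, a calcium-independent phospholipase, went the other way with 3.61 FPKM with anti-CD40 and 5.03 FPKM with IgG (ratio 0.717, interval 0.603 to 0.858). Pla2g2e, a secreted form, had 1.94 FPKM with anti-CD40 and 1.32 FPKM with IgG, with an interval from 0.826 to 2.66 that holds 1. The lysosomal Pla2g15 was the most abundant after Pla2g7, at 91.6 FPKM with anti-CD40 and 83.5 FPKM with IgG.

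Of the enzymes that load arachidonic acid onto coenzyme A or back into phospholipids, all 8 reached 1 FPKM and none was 1.3-fold apart on the log2(FPKM + 1) scale. Since 12% of all genes were 1.3-fold higher and 6.34% lower, a count of 0 among 8 does not set them apart. Acsl5 had 36.1 FPKM with anti-CD40 and 31.0 FPKM with IgG, and Mboat7, which places arachidonic acid into phosphatidylinositol, had 19.7 and 16.9 FPKM. Lpcat1, a lysophospholipid acyltransferase, had 18.5 FPKM with anti-CD40 and 21.7 FPKM with IgG (ratio 0.852, interval 0.791 to 0.917).

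Of 7 further prostanoid synthases measured, 5 reached 1 FPKM. Prxl2b, which makes prostaglandin F2 alpha and the related prostamide, had 57.7 FPKM with anti-CD40 and 87.6 FPKM with IgG, a ratio of 0.659 with an interval from 0.608 to 0.714. Of the other prostaglandin E synthases, Ptges2 had 6.74 FPKM with anti-CD40 and 5.78 FPKM with IgG, and Ptges3 had 27.7 and 26.8 FPKM. Cbr1, a carbonyl reductase that acts on prostaglandin E2, had 23.7 FPKM with anti-CD40 and 19.0 FPKM with IgG. The prostaglandin D synthase Ptgds and the prostacyclin synthase Ptgis had 0.042 and 0.0184 FPKM in the anti-CD40 library and were listed at 0 in the IgG library. Of 6 other lipoxygenases none reached 1 FPKM. Alox12, the platelet-type enzyme, had the highest level of them, with 0.365 FPKM with anti-CD40 and 0.121 FPKM with IgG.

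Of 10 genes that convert or inactivate leukotrienes, 6 reached 1 FPKM, with 4 above the median of all genes and 2 below. Cyp4f18, which hydroxylates leukotriene B4 in mouse neutrophils, had 13.9 FPKM with anti-CD40 and 24.1 FPKM with IgG, a ratio of 0.575 with an interval from 0.511 to 0.644. Mgst1, a microsomal glutathione transferase of the same protein superfamily as Ltc4s and Alox5ap, had 26.2 FPKM with anti-CD40 and 17.4 FPKM with IgG (ratio 1.51, interval 1.32 to 1.72). Mgst2, which can make leukotriene C4, had 2.82 FPKM with anti-CD40 and 3.64 FPKM with IgG, with an interval from 0.472 to 1.29. Abcc1, an exporter of leukotriene C4, had 13.8 FPKM with anti-CD40 and 10.3 FPKM with IgG (ratio 1.33, interval 1.24 to 1.43). Dpep2, a dipeptidase that cleaves leukotriene D4, had 98.2 FPKM with anti-CD40 and 79.2 FPKM with IgG (ratio 1.24, interval 1.18 to 1.31). The neutrophil markers, summed because neutrophils also express Cyp4f18, came to 2.60 FPKM with anti-CD40 and 1.59 FPKM with IgG. The part of neutrophils in the Cyp4f18 value was not tested.

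Prostaglandin transport and inactivation had 5 genes at 1 FPKM or more, and 4 of the 5 exceeded the median of all genes. Ptgr1, a reductase that inactivates prostaglandins and leukotriene B4, had 25.3 FPKM with anti-CD40 and 17.9 FPKM with IgG, a ratio of 1.41 with an interval from 1.29 to 1.55. Hpgd, the dehydrogenase that starts prostaglandin breakdown, had 3.02 FPKM with anti-CD40 and 2.65 FPKM with IgG, and its interval from 0.842 to 1.53 holds 1.

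Receptors were mostly low. Of 9 prostanoid receptors, Ptger4 and Ptgir reached 1 FPKM. Ptger4, which binds prostaglandin E2, had 5.66 FPKM with anti-CD40 and 4.47 FPKM with IgG (ratio 1.27, interval 1.08 to 1.48). Ptgir, the prostacyclin receptor, had 2.97 FPKM with anti-CD40 and 2.15 FPKM with IgG (ratio 1.38, interval 1.11 to 1.74). Of 7 leukotriene and lipoxin receptors, Fpr2 alone reached 1 FPKM, with 2.74 FPKM with anti-CD40 and 2.13 FPKM with IgG and an interval from 0.866 to 1.93. Cysltr1, a receptor for cysteinyl leukotrienes named after its values were seen, had 0.634 FPKM with anti-CD40 and 0.984 FPKM with IgG, a ratio of 0.644 with an interval from 0.464 to 0.892.

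All 7 regulators of eicosanoid release reached 1 FPKM, and their median log2 ratio was -0.0052. Mapk3, a kinase that phosphorylates cytosolic phospholipase A2, had 188 FPKM with anti-CD40 and 148 FPKM with IgG (ratio 1.28, interval 1.23 to 1.32). Gpx4, which reduces lipid hydroperoxides, had 790 FPKM with anti-CD40 and 945 FPKM with IgG (ratio 0.836, interval 0.818 to 0.855). Cotl1, a protein that binds 5-lipoxygenase, had 323 FPKM with anti-CD40 and 372 FPKM with IgG (ratio 0.868, interval 0.845 to 0.891). Anxa1, the gene of annexin A1, had 239 FPKM with anti-CD40 and 207 FPKM with IgG (ratio 1.15, interval 1.12 to 1.19).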

How the data were processed

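RNA was measured in 2 libraries of mouse macrophages, 1 per group. The submitters' processing notes name HISAT2 2.1.0, StringTie without a version and the build mm10; no label gives an annotation, a strand setting or a filter. The authors deposited 1 value per gene and library, read as FPKM; the header does not name the unit, which was inferred from StringTie and from the unequal sums of the columns, 529104 for anti-CD40 and 547362 for IgG. Columns were matched to samples by name, and 0 sample columns were left unused.

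Differences are ratios of FPKM and the log2 ratio of (FPKM + 1), which understates differences of low genes; genes counted had at least 1 FPKM in either library. Depth came from 32 (anti-CD40) and 19 (IgG) low single-exon genes whose length was the same in RefSeq and GENCODE M21. For them FPKM times length was a whole number of aligned bases, within 0.05, in 87.5% and 94.7%. At tried steps not close to the best one the share was at most 53.1% and 52.6%. The steps covered a limited range of depths, so whole multiples of the depth found were not tried. Fragments were taken as 300 bases, a pair of 150-base reads, and transcript lengths from GENCODE M21. Intervals of single ratios are exact; those of ratios between genes and of quotients use a normal approximation on the log scale. These steps assume that the unit is FPKM.

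Members and lists were chosen with earlier results of these data known. Up to 4 genes per list with the largest ratios at 1 FPKM or more were named, and others where said. Promoter sequence came from RefSeq (GRCm38.p6), which matched 9 of 10 members. Python 3.11.15, pandas 2.3.3, scipy 1.17.1 and statsmodels 0.14.6 were used. The alternatives were pseudocounts of 0.1 and 5, centring on the median, 3 rescalings, no level filter or one of 5 FPKM, and, chosen after seeing the data, removal of trends on length and GC content (lowess span 0.3).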

Additional observations from a re-analysis of the deposited data

How the results depend on the processing

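A filter of 5 FPKM leaves out 5 members, and trends were removed only for the 7 members at 1 FPKM or more. Pseudocounts and level filters cannot turn the sign of a log2 ratio. Rescaling to the column sums only raises anti-CD40 against IgG, so it cannot turn a higher gene. Centring and upper-quartile scaling only lower anti-CD40, so they cannot turn a lower gene. Many of the kept signs were thus fixed in advance. Under the 10 alternatives, Alox5ap, Tbxas1 and Ptgs2 stayed higher and Ptgs1, Ptges, Ltc4s and Alox5 stayed lower with anti-CD40 wherever they had a value. Their log2 ratios ranged from 0.27 to 0.44 for Alox5ap, 0.16 to 0.33 for Tbxas1, 0.10 to 0.74 for Ptgs2, -0.55 to -0.097 for Ptgs1, -0.71 to -0.25 for Ptges, -0.67 to -0.35 for Ltc4s and -0.26 to -0.019 for Alox5. The sign turned for Pla2g4a (-0.098 centred on the median, -0.037 with upper-quartile scaling), Hpgds (-0.0086 and -0.0025) and Lta4h (-0.035 and -0.028), as did the members' median log2 ratio (-0.035 and -0.033); both settings subtract the shift of all genes. The count of members at least 1.5-fold lower, 0 as reported, was 1 with a pseudocount of 0.1 (Ptges) and 2 after centring or upper-quartile scaling (Ptges and Ltc4s).

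Over all genes, 1.27% were 1.5-fold higher and 4.18% lower after centring, 1.47% and 3.81% with upper-quartile scaling, 5.30% and 3.43% with a pseudocount of 0.1, 0.845% and 1.06% with one of 5, and 4.67% and 2.22% with each library rescaled to a sum of 1e+06. At 1.3-fold the split was 5.0% higher and 10.8% lower after centring, against 12% and 6.34% as reported. No paired analysis was possible because each group holds 1 library, and leaving out a replicate would leave a group empty. Depth limits Alox5, Pla2g4a, Ptgs1 and Ptgs2, which rest on at most 84 fragments in a library.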

Other observations

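Enzymes that can supply arachidonic acid by another route, and those of platelet-activating factor, were looked up after the members' values were seen. Of 11 genes of monoacylglycerol and endocannabinoid metabolism, 6 reached 1 FPKM. Mgll, the monoacylglycerol lipase that yields arachidonic acid from 2-arachidonoylglycerol, had 29.8 FPKM with anti-CD40 and 30.7 FPKM with IgG, a ratio of 0.969 with a counting interval from 0.901 to 1.04. Naaa, an acid amidase that breaks down N-acylethanolamines, had 13.8 FPKM with anti-CD40 and 9.96 FPKM with IgG (ratio 1.39, interval 1.22 to 1.58), and Abhd4 had 17.6 and 13.6 FPKM. Faah was listed at 0 with anti-CD40 and had 0.0632 FPKM with IgG.

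All 7 genes of a list drawn up for platelet-activating factor reached 1 FPKM. Lpcat4, a lysophospholipid acyltransferase, had 3.63 FPKM with anti-CD40 and 1.80 FPKM with IgG, a ratio of 2.02 with an interval from 1.54 to 2.69. A part of Lpcat4 in making platelet-activating factor was not tested. Pafah1b3, a catalytic subunit of the intracellular acetylhydrolase, had 25.3 FPKM with anti-CD40 and 35.5 FPKM with IgG (ratio 0.712, interval 0.628 to 0.803), and Chpt1, a choline phosphotransferase, had 1.43 and 2.33 FPKM. Ptafr, the receptor, had 46.6 FPKM with anti-CD40 and 40.4 FPKM with IgG. Each of these differences comes from 1 library per group and has no replicate check.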
